A study of Mus musculus with 8 samples.

Results

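Pericytes are the mural cells that sit on the outside of capillaries, embedded in the same basement membrane as the endothelium. In the heart they are known for wrapping the dense capillary bed around cardiomyocytes, for answering endothelial PDGF-B through the receptor Pdgfrb, and for setting capillary tone through an ATP-sensitive potassium channel and the nitric oxide receptor guanylate cyclase. Rgs5, a regulator of G protein signalling, is one of the genes by which mural cells are usually told from endothelial cells and fibroblasts. Smooth muscle cells, the mural cells of larger vessels, share many of these genes, and Myh11 is one of those that mark them.

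The pericytes described here were 164 cells out of 28671 in single-cell RNA-seq libraries of endothelial cells (EC) sorted from adult mouse hearts. Members were selected on their UMI counts. A cell was taken when it held a unique molecular identifier (UMI, 1 counted RNA molecule) of at least 3 of the 7 genes Rgs5, Kcnj8, Abcc9, Higd1b, Vtn, Ndufa4l2 and Rgs4, at least 2 UMIs of Rgs5, and no UMI of Myh11 (smooth muscle myosin) or Ptprc (CD45). The 7 genes are called the rule genes below, and since measured values chose the cells, their levels are a description. The table held 31028 cells, and 2357 of these were left out before selection because their barcode was shared, 2041 of Healthy 228 with Healthy 239 and 316 of Healthy 227 with Healthy 228. After this the 28 pairs of libraries shared at most 40 barcodes, and the pericytes shared 0.

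All 8 mice were adult Pdgfb-iCreERT2-R26R-Brainbow2.1 animals, heterozygous for both transgenes, in which tamoxifen-activated Cre under the control of Pdgfb switches on a Confetti fluorophore. Every mouse had received tamoxifen at 150 mg/kg 21 days before the heart was taken. The MI group (mice 244, 250, 255 and 256) had the left anterior descending artery ligated 14 days after tamoxifen and was studied at 7 days post-MI, and the healthy group (mice 227, 228, 239 and 240) had no surgery. Cells were sorted as Confetti+ CD31+ Podoplanin-, with 1 10X Chromium library per mouse. Both the Cre driver and the CD31 gate are meant to select EC, so these 164 cells are the pericytes that passed an endothelial sort and not a sample of all cardiac pericytes.

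The number of pericytes was 24, 19, 34 and 6 in Healthy 227, 228, 239 and 240, and 18, 23, 20 and 20 in MI 244, 250, 255 and 256. As a percent of the cells of each mouse this was 0.986, 1.17, 0.893 and 0.184 in the healthy and 0.392, 0.450, 0.469 and 0.559 in the MI group. Of the healthy mice 3 lay above every MI mouse and Healthy 240, with 6 pericytes, lay below all of them. The mean was 0.808 ± 0.431% (SD, n = 4) in healthy and 0.467 ± 0.0689% (SD, n = 4) in MI mice, a difference that did not pass the test (two-sided exact permutation test over 8 mice, p = 0.143, and 0.286 after adjustment over 4 such tests). When cells with at least 1000 UMIs were thinned to 1000 before the rule was applied, the means were 0.725% and 0.383% (exact permutation p = 0.143). This put the cells at 1 depth but left out shallower cells. It also changed which cells met the rule, with 40 pericytes in Healthy 239 instead of 34. With no limit on Myh11 in the rule the means were 1.77% and 1.36% (exact permutation p = 0.571), Healthy 239 was highest of all mice at 3.28%, and MI 256 at 2.09% lay above Healthy 227 and 228, both at 1.60%. Leaving out Healthy 239 as well turned the direction, with means of 1.27% and 1.36% (exact permutation p = 0.914). Under the main rule the means without Healthy 240 were 1.02% and 0.467%, with an exact permutation p = 0.0571, the smallest that 3 mice against 4 allow. Without Healthy 228 they were closer, at 0.688% and 0.467% (exact permutation p = 0.286).

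Pericytes of the MI group held more UMIs. The median UMIs per pericyte were 2912, 3056, 2770 and 2673 in Healthy 227, 228, 239 and 240, and 5877, 5696, 4852 and 4935 in MI 244, 250, 255 and 256. The groups did not overlap (exact permutation p = 0.0286, the smallest that 4 against 4 mice can give, adjusted p = 0.114). Depth differed in the same direction across the whole series, with median UMIs per cell of 1913 to 2772 in healthy and 3485 to 4833 in MI mice. The pericyte UMIs summed per mouse ranged from 25747 in Healthy 240 to 146866 in MI 250, so that 1 UMI is worth 38.8 CPM (UMIs per 1000000 summed UMIs) in Healthy 240.

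The selection was checked against genes that it did not use. Pdgfrb, the PDGF-B receptor, averaged 463 CPM over the 8 mice in pericytes and 0.837 CPM in EC, where EC were the 26041 cells with at least 3 of 8 endothelial genes, no UMI of Myh11 or Ptprc and under 2 UMIs of Rgs5. Cells with a Pdgfrb UMI made up 31.9% of pericytes thinned to 1000 UMIs (exact 95% interval 24.7% to 39.7%, 160 cells) and 0.0431% of EC (25536 cells). Without thinning the shares were 58.5% and 0.276%, at median depths of 3960 and 3140 UMIs. Both shares of pericytes lay above those of EC. They pool all pericytes, and the members nearest to the thresholds are described below. These intervals cover counting error only. Smooth muscle cells (231 cells with at least 2 UMIs of Myh11, at least 2 of 6 contractile genes and no UMI of Ptprc) carried the pericyte genes too. The 34 pericyte genes outside the rule made up 1.30 ± 0.251% of pericyte UMIs in healthy and 0.859 ± 0.0851% in MI mice, against 1.0 ± 0.0968% and 0.905 ± 0.0757% in smooth muscle cells and 0.370% and 0.330% in EC (SD, n = 4). The median of Rgs5 UMIs, a description, was 20 in pericytes and 27 in smooth muscle cells. The selection itself separates these classes by their UMIs of Myh11.

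By the mean log2 ratio of pericyte to EC levels within each mouse (10 CPM added to both), the 10 genes that led outside the rule were Steap4, Colec11, Pdgfrb, Cygb, Aspn, Tpm2, Gucy1b3, Gucy1a3, Rarres2 and Notch3. Steap4, a metalloreductase, led with a ratio of 5.66 ± 0.84 (SD, n = 8 mice), from 620.1 CPM in pericytes and 0.641 CPM in EC. Colec11, a secreted collectin, averaged 557 CPM in pericytes, 71.4 CPM in smooth muscle cells and 2.38 CPM in EC. Notch3, the Notch receptor of mural cells, averaged 283 CPM in pericytes, 433 CPM in smooth muscle cells and 0.983 CPM in EC, so it marked both mural classes. Cspg4, which encodes the pericyte surface proteoglycan NG2, averaged 78.8 CPM in pericytes and 0.209 CPM in EC.

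Genes of other cell types were read in the pericytes as well. All of 15 fibroblast genes had a UMI, and together they made up 0.0512 ± 0.0146% of UMIs in healthy and 0.0954 ± 0.0575% in MI pericytes (SD, n = 4, from 0.0311% in Healthy 240 to 0.178% in MI 244), against 0.00939% and 0.0347% in EC. Among them Pdgfra, the fibroblast PDGF receptor, averaged 2.41 CPM and Dcn (decorin) 4.04 CPM. The 24 contractile genes made up 0.704% of UMIs in healthy and 0.638% in MI pericytes, which lay between 0.306% and 0.356% in EC and 2.44% and 2.79% in smooth muscle cells. Their member Cnn1 averaged 1.08 CPM, against 64.5 CPM in smooth muscle cells. Of 12 macrophage genes 10 had a UMI, and their summed share was 0.00559 ± 0.00787% of UMIs in healthy and 0.0346 ± 0.00885% in MI pericytes (SD, n = 4). C1qa, a complement gene of macrophages, was higher in every MI mouse than in every healthy mouse (13.3, 0, 9.53 and 0 CPM against 22.4, 40.9, 69.4 and 49.3 CPM), and its part in the differences below was not tested.

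Endothelial transcripts were abundant in the pericytes. A list of 20 endothelial genes (Pecam1, Cdh5, Kdr, Cldn5, Fabp4 and others) made up 0.0789% to 5.43% of the UMIs of a pericyte with a median of 1.69%, against a median of 3.68% in EC. In 39 pericytes the share was at least 0.8 of the EC median of the same mouse, in 84 it was between 0.2 and 0.8, and in 41 it was below 0.2. Only 41 pericytes held no UMI of Pecam1 (the CD31 of the sort gate) and Cdh5 (VE-cadherin), 28 healthy and 13 MI. Across the 164 cells, the share of 34 pericyte genes outside the rule fell as the endothelial share rose (Spearman rho -0.76, a description over cells of 8 libraries whose shares come from the same totals).

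**Figure D1:**
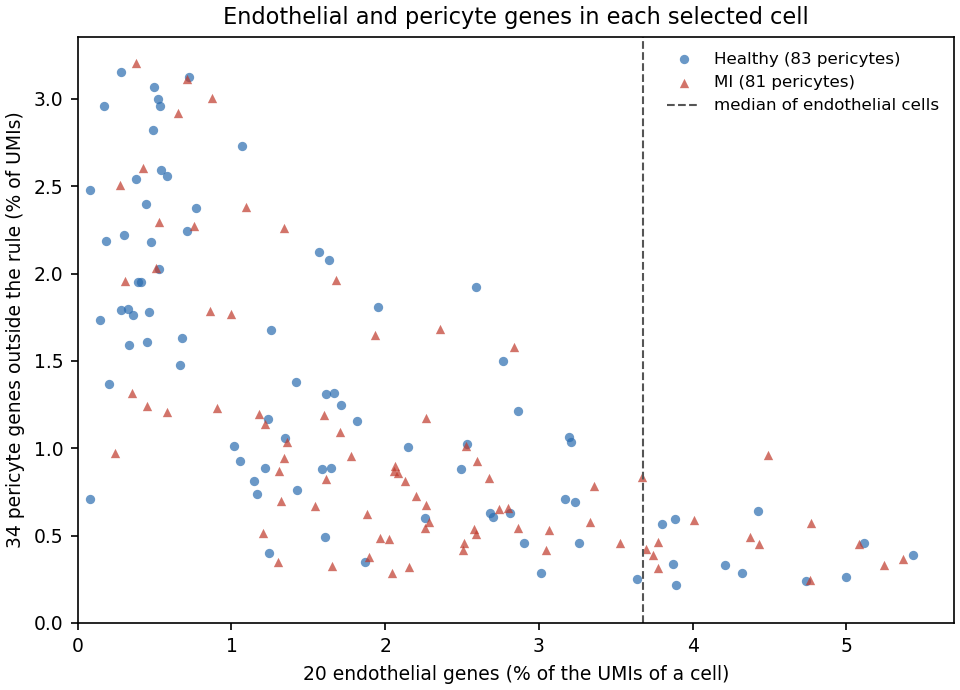
Each point is 1 of 164 pericytes, with its share of UMIs on 20 endothelial genes (horizontal axis, percent) and on 34 pericyte genes outside the rule (vertical axis, percent), as blue circles for 83 healthy and red triangles for 81 MI cells. The dashed line is the EC median of 3.68%, and cells with the most pericyte transcripts lie at the left, with a continuous tail towards the EC median.

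The endothelial share was higher in pericytes than in macrophages and smooth muscle cells of the same libraries. Summed per mouse, it exceeded that of macrophages by 1.38 ± 0.416 percentage points (SD, n = 8, higher in 8 of 8 mice, exact sign-flip p = 0.00781, the smallest for 8 mice) and that of smooth muscle cells by 0.896 ± 0.305 points (SD, n = 8, higher in 8 of 8, exact p = 0.00781). Each share is of the total of its own class, and the classes differed in depth. Median UMIs per cell were 3960 in pericytes, 5802 in smooth muscle cells and 7949 in macrophages. Endothelial UMIs per cell were not compared between these classes. The level of single endothelial genes in pericytes, as a ratio to that in EC, ran from 0.330 for Tek (the angiopoietin receptor) to 0.855 for Ptprb (an endothelial phosphatase) in healthy and from 0.422 for Aqp1 (a water channel) to 1.06 for Flt1 (a VEGF receptor) in MI mice. Cells were gated for singlets in the sort, no doublet caller was run here, and the part of cell doublets or free RNA in these values was not tested.

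Between the groups neither the endothelial share of the total nor its ratio to that of EC passed the test, and the ratio was higher on average post-MI. The share was 2.72, 2.18, 1.43 and 1.70% of pericyte UMIs in Healthy 227, 228, 239 and 240 and 1.94, 2.36, 2.36 and 2.07% in MI 244, 250, 255 and 256 (means 2.01 ± 0.567% and 2.18 ± 0.214%, SD, n = 4, exact permutation p = 0.543). Relative to the EC of the same mouse it was 0.499 ± 0.110 in healthy and 0.686 ± 0.118 in MI pericytes (SD, n = 4, exact permutation p = 0.0857). Pericytes with an endothelial share under 0.2 of the EC median were 31 of 83 in the healthy and 10 of 81 in the MI group. Those at 0.8 or more of it were 14 of 83 (16.9%) and 25 of 81 (30.9%). These counts pool mice with unequal numbers of pericytes. The median share per pericyte was 2.59, 1.61, 1.16 and 0.424% in Healthy 227, 228, 239 and 240. It was 1.62, 2.06, 2.17 and 2.06% in MI 244, 250, 255 and 256, so Healthy 227 lay above every MI mouse.

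The members nearest to the thresholds held fewer pericyte and more endothelial transcripts than the others. There were 10 pericytes with exactly 2 UMIs of Rgs5, with a median endothelial share of 2.55%, and 45 with exactly 3 of the 7 rule genes, with a median of 2.58%. The 46 pericytes with all 7 rule genes had a median endothelial share of 0.868% and a median of 29 Rgs5 UMIs. The pericyte genes outside the rule made up a median of 1.94% of UMIs in these 46 cells. That median was 0.484% in the 45 with exactly 3 rule genes and 0.459% in the 10 with exactly 2 UMIs of Rgs5. In EC it was 0.342%, with an upper quartile of 0.450%. By these genes the members nearest to the thresholds lay closer to EC than to the members with all 7 rule genes. Just outside the rule lay 17 cells with 1 UMI of Rgs5 (median endothelial share 2.81%), 107 cells with 2 rule genes (3.41%), 277 cells with a Myh11 UMI (1.09%) and 1 cell with a Ptprc UMI.

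The UMIs per pericyte show how the groups compare before any scaling. The rule genes together gave 28.5, 51.9, 47.3 and 64.7 UMIs per pericyte in Healthy 227, 228, 239 and 240 and 50.7, 45.9, 36.5 and 59.0 in MI 244, 250, 255 and 256, with nearly equal means of 48.1 ± 15.0 and 48.0 ± 9.40 (SD, n = 4). The 34 pericyte genes outside the rule gave 48.4 ± 16.0 UMIs per pericyte in healthy and 57.5 ± 9.98 in MI mice, and these ranges overlapped too. The 20 endothelial genes gave 73.6 ± 21.2 and 145 ± 6.36, and all genes 3685 ± 659.7 and 6674 ± 748, without overlap between the groups. All fold changes below are relative to the total, so a pericyte gene whose UMIs per cell were level between the groups reads as lower post-MI.

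**Figure D2:**
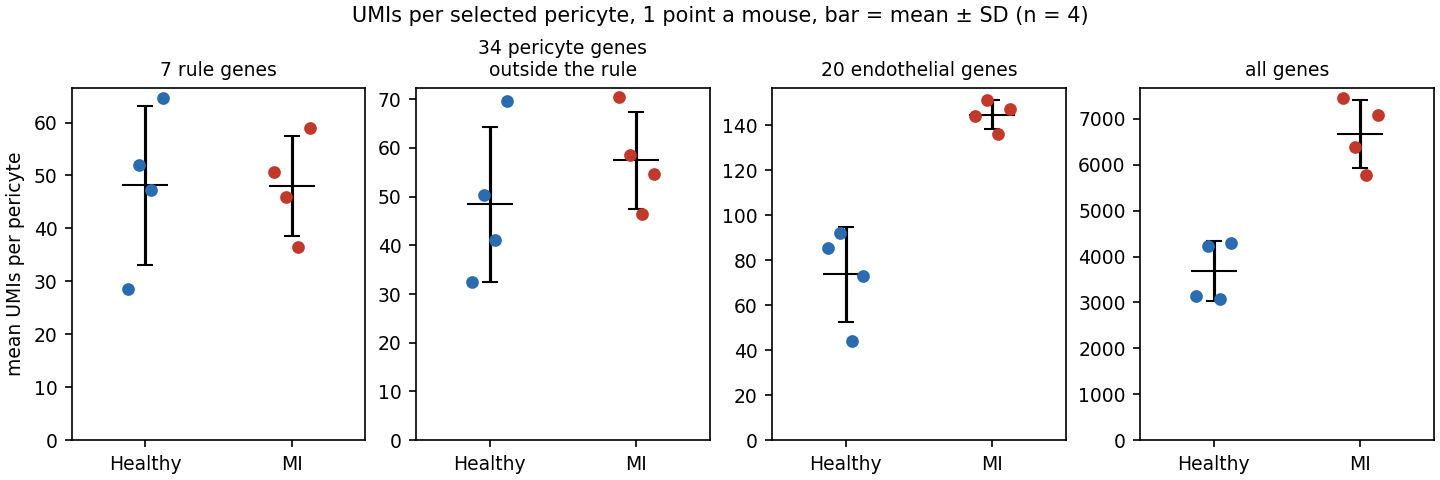
Mean UMIs per pericyte (vertical axes, each from 0) for the 7 rule genes, 34 pericyte genes outside the rule, 20 endothelial genes and all genes, with 1 point per mouse in 4 healthy (blue) and 4 MI mice (red) and bars for the mean ± SD. The first 2 panels overlap between the groups, whereas endothelial and total UMIs were higher in every MI mouse.

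As a share of the total, the 7 rule genes were lower on average post-MI, given here as a description since they chose the cells. Rgs5 was at 5209, 6322, 9529 and 8467 CPM in Healthy 227, 228, 239 and 240 and at 3461, 4044, 4265 and 5646 CPM in MI 244, 250, 255 and 256 (log2 fold change -0.86, SE 0.22), and the 2 ranges overlapped at Healthy 227 and MI 256. Abcc9, which encodes the sulphonylurea receptor SUR2 of the ATP-sensitive potassium channel, fell furthest of the 7, from 676, 1135, 400.2 and 544 CPM to 194, 232, 139 and 239.6 CPM without overlap (-1.88, SE 0.31). Kcnj8, which encodes the pore of the same channel (Kir6.1), was at 716, 1721, 1086 and 1204 CPM in healthy and 925, 769, 416 and 507 CPM in MI mice, which overlapped (-0.95, SE 0.29).

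Rgs4, a second regulator of G protein signalling, was at 371, 387, 762 and 816 CPM and 269, 259, 217 and 155 CPM (-1.41, SE 0.29), with every MI mouse below every healthy one. Vtn (vitronectin, an adhesion protein) showed the same separation (517, 698, 962 and 1204 CPM against 470.0, 443, 165 and 486 CPM, -1.14, SE 0.32). Ndufa4l2, a mitochondrial protein that is induced in low oxygen, was at 994, 1384, 1763 and 2136 CPM and 895, 1049, 702 and 979.7 CPM (-0.86, SE 0.23), and Higd1b, a hypoxia-inducible domain family member, at 596, 661, 810.0 and 699 CPM and 597, 395, 416 and 296 CPM (-0.80, SE 0.23). In both genes 1 MI mouse lay above Healthy 227 and the others lay below all healthy mice. In EC none of these genes but Rgs5 exceeded 5 CPM on average, and Rgs5 averaged 14.8 CPM there.

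Several of these genes lie beside a partner of the same kind (GRCm38, GENCODE annotation). Kcnj8 (chr6:142564837-142571614) and Abcc9 (chr6:142587862-142702315) are both on the minus strand with 16.2 kb between them, and no protein-coding gene lies in between. Rgs5 (chr1:169655501-169695813, plus strand) and Rgs4 (chr1:169741477-169747642, minus strand) are 45.7 kb apart, again with no coding gene between them. The same holds for Gucy1a3 (chr3:82092427-82145789) and Gucy1b3 (chr3:82032006-82074689), the subunits of the nitric oxide receptor guanylate cyclase, 17.7 kb apart and now named Gucy1a1 and Gucy1b1. The promoters of the channel pair and of the cyclase pair are printed to show what these neighbouring genes of 1 channel and of 1 receptor hold upstream, 250 bases before to 50 after the annotated start (RefSeq, GRCm38.p6), 5′ to 3′ on the strand of the gene. Capitals mark TGGGAA or its complement TTCCCA, the core letters bound by the Notch effector RBPJ:
Kcnj8 (chr6:142571565-142571864, minus strand): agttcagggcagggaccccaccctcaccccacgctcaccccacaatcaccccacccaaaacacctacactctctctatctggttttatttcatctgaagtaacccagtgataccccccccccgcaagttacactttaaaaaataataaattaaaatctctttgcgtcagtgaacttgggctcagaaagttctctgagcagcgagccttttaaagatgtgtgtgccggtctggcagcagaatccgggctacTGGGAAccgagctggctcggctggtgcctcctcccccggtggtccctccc
Abcc9 (chr6:142702225-142702524, minus strand): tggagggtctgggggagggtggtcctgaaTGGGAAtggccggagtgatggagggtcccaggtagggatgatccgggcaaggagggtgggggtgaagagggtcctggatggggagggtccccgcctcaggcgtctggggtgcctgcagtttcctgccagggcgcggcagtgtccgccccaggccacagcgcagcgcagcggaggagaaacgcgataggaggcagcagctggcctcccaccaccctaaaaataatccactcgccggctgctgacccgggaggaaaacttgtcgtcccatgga
Gucy1a1 (chr3:82145601-82145900, minus strand, the first of 2 annotated starts): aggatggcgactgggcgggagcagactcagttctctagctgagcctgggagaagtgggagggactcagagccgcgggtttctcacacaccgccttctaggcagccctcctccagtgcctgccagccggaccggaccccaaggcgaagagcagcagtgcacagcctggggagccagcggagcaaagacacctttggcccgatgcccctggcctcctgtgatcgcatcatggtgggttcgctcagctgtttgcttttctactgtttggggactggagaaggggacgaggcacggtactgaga
Gucy1b1 (chr3:82074662-82074961, minus strand): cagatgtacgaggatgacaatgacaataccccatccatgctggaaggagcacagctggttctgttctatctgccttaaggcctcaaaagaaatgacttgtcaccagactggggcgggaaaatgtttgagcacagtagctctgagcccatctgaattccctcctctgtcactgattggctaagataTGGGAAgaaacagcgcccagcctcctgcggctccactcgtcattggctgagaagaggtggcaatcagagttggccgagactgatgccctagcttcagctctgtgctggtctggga
Kcnj8, Abcc9 and Gucy1b1 each held the letters once and this Gucy1a1 window held none. These letters stand in 25.6% of all 32851 promoter windows of the same length on either strand, and a match is a description and not a site. Of the 7 rule genes 5 had a promoter in the table, which has no entry for Ndufa4l2 and Higd1b.

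The comparison of MI with healthy pericytes tested 2028 genes whose UMIs, summed per mouse, passed the filter on low counts (edgeR quasi-likelihood test over 8 mice, Benjamini-Hochberg adjustment over all genes tested). After MI 53 genes were higher (2.61% of those tested) and 73 were lower (3.60%), of which 5 were rule genes. The median log2 fold change over all genes was 0.00. Of the 53, 44 were also called higher in EC, where 18.8% of 12312 genes tested were. Of the 73, 49 were also called lower in EC, where 18.7% were. By level, 3 of the 53 and 23 of the 73 were at least 1 log2 unit higher in pericytes than in EC, as were 133 of all 2028. The part of endothelial RNA in these calls was not tested. Pericyte genes were mostly on the lower side. Of the 34 pericyte genes outside the rule 21 passed the filter, 8 of them fell and none rose past the threshold, with a median log2 fold change of -0.80.

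That direction depends on what the genes are set against. The 71 tested genes that were at least 10 times higher in pericytes than in EC, the 7 rule genes among them, had a median log2 fold change of -0.86, and when the libraries were scaled to these genes instead of all genes (an alternative added after seeing the data), the median of all genes moved to 0.74 and the calls to 455 higher and 3 lower. The 3 genes that were lower on that scale too were Plxdc2, Pid1 and the rule gene Abcc9, whose value is a description. The rule genes held 36.4% of the UMIs of the 71 genes. With the scale set on the other 64 genes alone, whose median log2 fold change was -0.68, the median of all genes moved to 0.62 and the calls to 168 higher and 1 lower, Pid1. The other lower genes passed against the total only. The higher endothelial and total UMIs per MI pericyte stand beside this, and their part in it was not tested. Of the 42 named genes called, rule genes included, 28 could be tested in the 87 pericytes with an endothelial share under 0.5 of the EC median, and Pid1, Sparc, Ifitm3 and Cd34 kept their call. In the 41 pericytes with no UMI of Pecam1 and Cdh5 17 could be tested and none kept it, with 1 turned in direction. Fewer cells and genes enter both sets.

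Plxdc2, a transmembrane receptor related to plexins, was at 106, 99.8, 114 and 233 CPM in Healthy 227, 228, 239 and 240 and 37.3, 34, 17.3 and 35.2 CPM in MI 244, 250, 255 and 256 (log2 fold change -1.97, SE 0.41, adjusted p = 0.0109). Scaled to the pericyte genes the log2 fold change was -1.29 (adjusted p = 0.0454 with edgeR), and to those outside the rule -1.39, which did not pass (edgeR adjusted p = 0.0613). Pid1, an adaptor protein that acts on insulin and LRP1 signalling, was at 252, 312, 324 and 505 CPM and 119, 88.5, 95.4 and 70.5 CPM (log2 fold change -1.89, SE 0.28, adjusted p = 0.00173), and at -1.15 and -1.25 on the same 2 scales (adjusted p = 0.0299 and 0.0350 with edgeR). Every MI mouse lay below every healthy mouse for both genes, which the condition for naming them asked for. Abcc9, described above, was at -1.20 on the first of these scales.

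Both subunits of the nitric oxide receptor were lower relative to the total. Gucy1a3 was at 345, 611, 486 and 777 CPM in Healthy 227, 228, 239 and 240 and at 164, 245, 225 and 239.6 CPM in MI 244, 250, 255 and 256 (log2 fold change -1.37, SE 0.26, adjusted p = 0.00805). Gucy1b3, the other subunit, was at 358, 474, 543 and 1009.8 CPM and 246, 259, 208 and 148 CPM (log2 fold change -1.45, SE 0.30, adjusted p = 0.0109). Neither subunit overlapped between the groups, and relative to the pericyte genes they were at -0.56 and -0.65, which did not pass the test (edgeR adjusted p = 0.217 and 0.147). In the 87 pericytes with an endothelial share under 0.5 of the EC median they were at -0.63 and -0.98 (edgeR adjusted p = 0.300 and 0.128), and in the 41 with no UMI of Pecam1 and Cdh5 at -0.32 and -0.68 (0.821 and 0.625). They were at -0.88 and -0.66 with no limit on Myh11 in the rule (edgeR adjusted p = 0.00527 and 0.0496). Of 20 listed genes of endothelin, nitric oxide and adrenergic tone 7 passed the filter, of which 4 are rule genes (Abcc9, Kcnj8, Rgs4 and Rgs5) and the other 3 are these subunits and Ednrb. Ednrb, an endothelin receptor, was at log2 fold change -0.15, SE 0.42, adjusted p = 0.877, and Ednra did not pass the filter.

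The PDGF receptor was among the 8 pericyte genes outside the rule that fell. Pdgfrb was at 543, 611, 609.9 and 777 CPM in the 4 healthy and 276, 320.0, 173 and 395 CPM in the 4 MI mice, without overlap (log2 fold change -1.17, SE 0.25, adjusted p = 0.0116), and at -0.43 relative to the pericyte genes. With no limit on Myh11 in the rule it was at -0.70 and lost its call, and it was at -0.60 in the 41 pericytes with no UMI of Pecam1 and Cdh5 (edgeR adjusted p = 0.625). Its ligand gene Pdgfb, read in the same cells, was at log2 fold change -0.18, SE 0.36, adjusted p = 0.821. Notch3 was lower in every MI mouse (212, 224, 448 and 699 CPM against 119, 191, 191 and 183 CPM) but did not pass the threshold (log2 fold change -1.15, SE 0.33, adjusted p = 0.0528), whereas with DESeq2 it did (adjusted p = 0.0390). None of the 7 Notch pathway genes tested passed with edgeR, with a median of -0.34, and none of the 6 TGF-beta genes did, with a median of -0.13.

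Further genes enriched in pericytes were lower post-MI as a share of the total. Steap4, G0s2, Rem1, Sncg and Btbd3 were among those named under a condition that asked for no overlap. Their separation between the groups is therefore a description. Steap4 fell from 609.7, 586, 715 and 1592 CPM to 455, 483, 251 and 268 CPM (log2 fold change -1.24, SE 0.32, adjusted p = 0.035). G0s2, an inhibitor of triglyceride lipase, fell from 212, 274, 419 and 311 CPM to 97.0, 163, 43.3 and 127 CPM (log2 fold change -1.57, SE 0.33, adjusted p = 0.0118). Rem1, a small GTPase that restrains calcium channels, fell from 119, 112, 248 and 155 CPM to 44.8, 74.9, 43.3 and 42.3 CPM (log2 fold change -1.74, SE 0.36, adjusted p = 0.0109). G0s2 and Rem1 each missed the threshold without Healthy 239, and Steap4 missed it without Healthy 240, MI 244, MI 255 or MI 256, with the shared barcodes kept and with at least 3 UMIs of Rgs5. Steap4 was at -0.80 with no limit on Myh11 and missed it (edgeR adjusted p = 0.152), as did Ebf1 and Cygb, and in the 41 pericytes with no UMI of Pecam1 and Cdh5 it was at -0.30 (edgeR adjusted p = 0.866). With no limit on Myh11 G0s2 was at -0.89 and Btbd3 at -0.995. Sncg (gamma-synuclein) was at log2 fold change -1.34, SE 0.24, adjusted p = 0.00431, Btbd3 at log2 fold change -1.58, SE 0.33, adjusted p = 0.0116, the transcription factor gene Ebf1 at log2 fold change -1.03, SE 0.21, adjusted p = 0.0109 and the globin gene Cygb at log2 fold change -0.95, SE 0.27, adjusted p = 0.0496. Btbd3 lost its call without Healthy 228, and Cygb kept it only without Healthy 227 or MI 256.

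Not all pericyte genes passed the test. Colec11 was at 742, 860.4, 581 and 388 CPM in healthy and 664, 293, 338 and 592 CPM in MI mice, which overlapped (log2 fold change -0.59, SE 0.29, adjusted p = 0.258). Art3, an ADP-ribosyltransferase, was at log2 fold change -0.67, SE 0.36, adjusted p = 0.3, and Heyl, a Notch target, at log2 fold change -0.34, SE 0.31, adjusted p = 0.549. Aspn (asporin), Tpm2 and Rarres2 (chemerin) overlapped between the groups as well, with log2 fold changes of -0.63, -0.39 and -0.86.

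**Figure D3:**
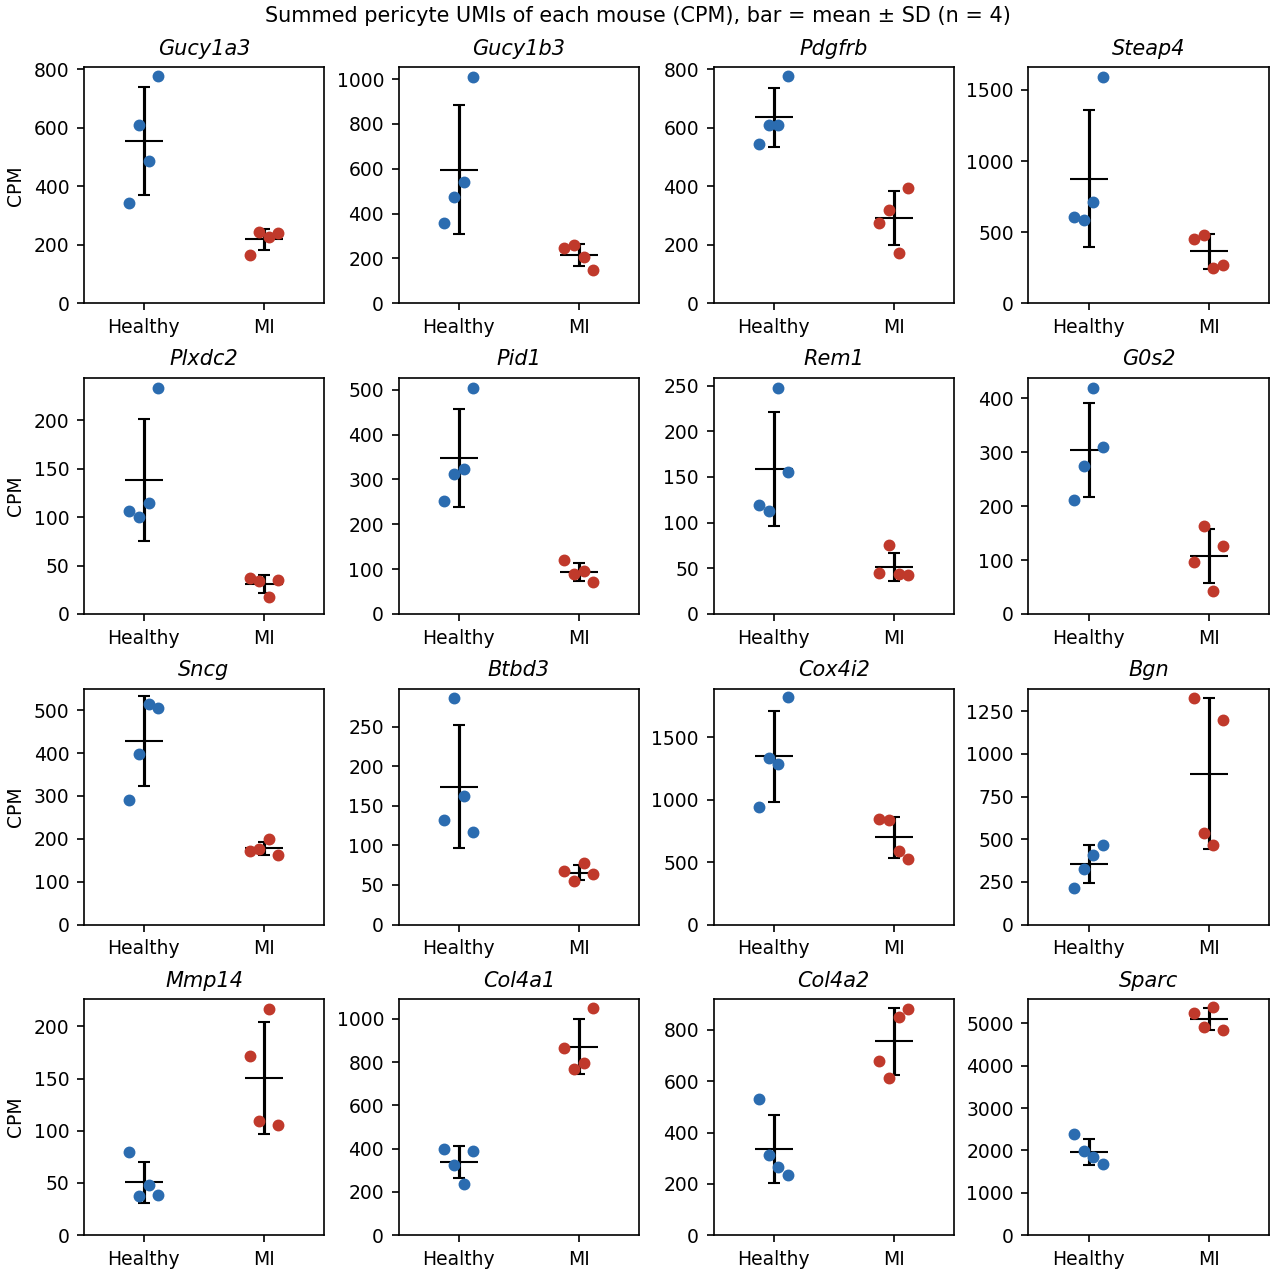
CPM (vertical axes, each from 0) of 16 genes in the summed pericyte UMIs of 4 healthy (blue) and 4 MI mice (red), with 1 point per mouse and bars for the mean ± SD. The first 11 genes were lower in every MI mouse than in every healthy mouse as a share of all UMIs, but only Plxdc2 and Pid1 of them passed the test when scaled to pericyte genes and only Pid1 when these left out the rule genes, and Bgn, Mmp14, Col4a1, Col4a2 and Sparc were higher in every MI mouse. Apart from Cox4i2, Col4a1, Col4a2 and Sparc, the genes were among those named under a condition that asked for no overlap. The separation is a description, and the share of all tested genes without overlap was not counted.

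Contractile genes varied more between mice than between groups. Their 24 genes together made up 0.530, 0.423, 0.940 and 0.924% of pericyte UMIs in Healthy 227, 228, 239 and 240 and 0.743, 0.560, 0.608 and 0.641% in MI 244, 250, 255 and 256 (means 0.704 ± 0.267% and 0.638 ± 0.0776%, SD, n = 4, exact permutation p = 0.686), and the difference changed sign without Healthy 239 or Healthy 240. Acta2 (smooth muscle actin) ran from 37.4 CPM in Healthy 228 to 2058 CPM in Healthy 240 and from 472 to 977 CPM in the MI group (log2 fold change -0.40, SE 0.64, adjusted p = 0.765). Myl9 was at log2 fold change -1.02, SE 0.40, adjusted p = 0.153 and Des (desmin) at log2 fold change 0.15, SE 0.37, adjusted p = 0.861. Of 16 contractile genes tested Sncg alone was lower and none was higher, which is near the 3.60% of all genes tested that were lower. With no limit on Myh11 in the rule Sncg was at -0.37 and lost its call.

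Cox4i2, the isoform of cytochrome c oxidase subunit 4 that serves oxygen sensing, was at 941, 1334, 1286 and 1825 CPM in healthy and 843, 837, 589.5 and 522 CPM in MI mice without overlap (log2 fold change -1.01, SE 0.23, adjusted p = 0.0202), and at -0.22 relative to the pericyte genes. The call was lost without MI 255, with no filter on low counts and with no limit on Myh11 (-0.32), and in the 41 pericytes with no UMI of Pecam1 and Cdh5 the value turned to 0.22 (edgeR adjusted p = 0.886). Its common counterpart Cox4i1 was at log2 fold change 0.05, SE 0.18, adjusted p = 0.904. Of 13 tested genes of cytochrome c oxidase and the NDUFA4 isoforms, Cox4i2 was lower, beside the rule gene Ndufa4l2, and none was higher, with a median of -0.11. Epas1 (HIF-2 alpha), a transcription factor of the hypoxia response, was at log2 fold change -0.80, SE 0.23, adjusted p = 0.0496, and of 11 tested genes of hypoxia and glycolysis Pkm (pyruvate kinase) alone was higher (log2 fold change 0.83, SE 0.21, adjusted p = 0.0289), Cox4i2 and the rule gene Ndufa4l2 were lower, and the median was 0.05, where 2.61% of all genes tested were higher and 3.60% lower. Epas1 kept its call only without MI 256, and Pkm only without Healthy 239 or MI 256. With DESeq2 Epas1 did not pass (adjusted p = 0.0642), and with no limit on Myh11 neither Epas1 nor Pkm did (-0.51 and 0.62).

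Basement membrane genes were higher post-MI. Of 18 listed genes 9 were tested, 5 rose (Col4a1, Col4a2, Hspg2, Sparc and Col18a1) and none fell, where 2.61% of all genes tested were higher, with a median log2 fold change of 0.82 against 0.00 over all genes. Col4a1 was at 398, 324, 238 and 388 CPM in Healthy 227, 228, 239 and 240 and 865, 769, 798 and 1050.2 CPM in MI 244, 250, 255 and 256 (log2 fold change 1.32, SE 0.22, adjusted p = 0.00302). Col4a2, the chain that joins it in type IV collagen, was at 530.2, 312, 267 and 233 CPM and 679, 613, 849.6 and 881 CPM (log2 fold change 1.04, SE 0.24, adjusted p = 0.0216). Sparc, a matrix protein that binds collagen, was at 2386, 1995, 1839 and 1670.1 CPM and 5252, 4923, 5384 and 4835 CPM (log2 fold change 1.26, SE 0.16, adjusted p = 0.000571). Every MI mouse was above every healthy mouse for all 3 genes, and the call for Col4a2 was lost without Healthy 228, Healthy 239 or MI 255, whereas Hspg2 (perlecan, log2 fold change 0.82, SE 0.23, adjusted p = 0.0452) lost its call without any 1 mouse and with DESeq2 (adjusted p = 0.125). Col4a2, Hspg2 and Col18a1 did not pass with no limit on Myh11 (0.95, 0.67 and 1.17 on the log2 scale).

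EC make basement membrane too, and their own values stand beside those of the pericytes, which come from the same mice. Of 15 basement membrane genes tested in EC 8 were higher (18.8% of 12312 genes tested in EC were higher and 18.7% lower) and 1 was lower. Col4a1 was at 0.59 in EC (edgeR adjusted p = 0.00741), Col4a2 at 0.31 (0.0591) and Sparc at 0.997 (0.000867). The test of the difference between pericytes and EC did not pass for Col4a1 (edgeR adjusted p = 0.061), Col4a2 (0.117) or Sparc (0.576). In the 87 pericytes with an endothelial share under 0.5 of the EC median, Col4a1 was at 1.45 (edgeR adjusted p = 0.0749) and Sparc at 1.25 (0.0320), where the call was kept for Sparc only. In the 41 pericytes with no UMI of Pecam1 and Cdh5 Sparc was at 0.63 and did not pass (edgeR adjusted p = 0.625).

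Col4a1 and Col4a2 lie head to head on chromosome 8 and their annotated genes overlap by 22 bases. Their promoter windows are printed because they share 78 bases (chr8:11312777-11312854), which the capitals mark and which read as reverse complements (RefSeq, GRCm38.p6, 5′ to 3′ on the strand of each gene):
Col4a1 (chr8:11312777-11313076, minus strand): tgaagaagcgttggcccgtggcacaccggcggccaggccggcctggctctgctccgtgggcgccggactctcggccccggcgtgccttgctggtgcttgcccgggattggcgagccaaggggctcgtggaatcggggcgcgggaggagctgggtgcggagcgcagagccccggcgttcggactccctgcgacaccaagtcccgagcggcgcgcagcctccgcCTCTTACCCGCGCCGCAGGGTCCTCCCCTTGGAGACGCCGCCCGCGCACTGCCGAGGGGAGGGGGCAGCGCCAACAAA
Col4a2 (chr8:11312555-11312854, plus strand): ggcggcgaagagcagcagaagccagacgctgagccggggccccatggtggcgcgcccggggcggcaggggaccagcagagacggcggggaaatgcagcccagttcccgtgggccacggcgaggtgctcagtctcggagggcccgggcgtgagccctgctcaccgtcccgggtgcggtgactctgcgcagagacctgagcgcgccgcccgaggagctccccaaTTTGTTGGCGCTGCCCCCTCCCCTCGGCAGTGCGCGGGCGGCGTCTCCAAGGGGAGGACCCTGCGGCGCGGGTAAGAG

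Of 31 genes of fibrillar and injury matrix 13 were tested, and Bgn and Serpinh1 rose, where 2.61% of all genes tested were higher. In EC 24 of 29 such genes were higher, against 18.8% of all EC genes tested. Bgn (biglycan, a small proteoglycan) was at 212, 324, 409.8 and 466 CPM in the healthy and 1328, 538, 468 and 1198 CPM in the MI group (log2 fold change 1.28, SE 0.36, adjusted p = 0.0459), and Mmp14, the membrane-bound collagenase, at 79.5, 37.4, 47.6 and 38.8 CPM and 172, 109, 217 and 106 CPM (log2 fold change 1.39, SE 0.39, adjusted p = 0.0459). Both were higher in pericytes than in EC and higher in every MI mouse, which 1 condition for naming asked for. Both calls were lost without Healthy 228, Healthy 239, Healthy 240 or MI 244, and each without further single mice. With DESeq2 Mmp14 was at 1.42 on the log2 scale and did not pass. Serpine2 (protease nexin), the third gene that rose and was enriched in pericytes, was chosen after its values were seen (2.18, edgeR adjusted p = 0.0247). Serpinh1, the collagen chaperone HSP47, was at log2 fold change 0.94, SE 0.20, adjusted p = 0.0118, and lost its call without Healthy 228 and with no limit on Myh11 (0.53). Col3a1 was at 79.5, 49.9, 38.1 and 155 CPM and 433, 102, 86.7 and 423 CPM and did not pass (log2 fold change 1.93, SE 0.61, adjusted p = 0.0804), and Tnc, a matrix protein of healing infarcts, had no UMI in any mouse.

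The highest fold changes outside the pericyte genes were those of Plvap and Marcksl1. Plvap had 2 UMIs in 1 of 4 healthy mice and 245 UMIs in the 4 MI mice, which is a ratio of 65.2 after scaling to the summed UMIs (exact 95% interval 17.9 to 541, counting error only) and passed the test (edgeR adjusted p = 0.000571). Plvap, an endothelial diaphragm protein, is 1 of the 20 endothelial genes, and its mean level was 6.24 CPM in healthy and 451 CPM in MI pericytes, against 10.6 and 455 CPM in EC. The part of endothelial RNA in its pericyte value was not tested. Marcksl1 had 3 UMIs in 1 healthy mouse and 117 in MI mice, a ratio of 20.8 (6.93 to 102, edgeR adjusted p = 0.00786), and with no limit on Myh11 its log2 fold change was 1.87 against 4.17. Ifi27l2a was at log2 fold change 3.67, SE 0.48, adjusted p = 0.000571, Igfbp3 at log2 fold change 2.87, SE 0.61, adjusted p = 0.0116, or 1.75 with no limit on Myh11, and Col18a1 at log2 fold change 2.54, SE 0.51, adjusted p = 0.0104. In EC of the same mice the log2 fold changes were 5.34 for Plvap, 2.27 for Marcksl1, 2.19 for Ifi27l2a, 1.22 for Igfbp3 and 2.37 for Col18a1. At the other end, apart from the pericyte genes, stood Rps26-ps1 (log2 fold change -1.91, SE 0.43, adjusted p = 0.0188) and Wdr89 (log2 fold change -1.72, SE 0.29, adjusted p = 0.00302), and the pseudogene Rps26-ps1 may share reads with its parent gene and lost its call without Healthy 228 or MI 244.

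Of 16 interferon response genes tested 3 rose (Irf7, Ifi27l2a and Ifitm3) and none fell, where 2.61% of all genes tested were higher, with a median log2 fold change of 0.43. In EC 5 of 21 interferon genes were higher and 1 was lower, where 18.8% and 18.7% of all EC genes tested were. Ifitm3 was at 3022, 1846, 1877 and 1631 CPM and 3752, 3479, 4742 and 3722 CPM (log2 fold change 0.80, SE 0.19, adjusted p = 0.0225), and Irf7 at log2 fold change 1.61, SE 0.43, adjusted p = 0.0402. The call for Ifitm3 was lost without Healthy 228, Healthy 239, MI 244 or MI 255, and that for Irf7 held only without Healthy 227 or MI 250. Of 23 tested genes of dissociation and the immediate early response, Btg2 (log2 fold change -1.11, SE 0.31, adjusted p = 0.0432) and the small heat shock gene Hspb1 (log2 fold change -1.005, SE 0.21, adjusted p = 0.0109) fell and none rose, where 3.60% of all genes tested were lower, and the median was -0.39. Hspb1 kept its call without any 1 mouse but lost it with no filter on low counts, and Btg2 lost it without Healthy 239, Healthy 240, MI 244, MI 255 or MI 256. The 25 cell cycle genes made up 0.160, 0.170, 0.172 and 0.113% of pericyte UMIs in Healthy 227, 228, 239 and 240 and 0.554, 0.235, 0.355 and 0.213% in MI 244, 250, 255 and 256, without overlap. EC of the same mice held 0.244 ± 0.0225% in the healthy and 0.444 ± 0.0744% in the MI group (SD, n = 4), also without overlap, and 21 of 25 cell cycle genes were higher. The part of endothelial RNA in the pericyte values was not tested. None of the 6 cell cycle genes tested passed, with a median log2 fold change of 0.71. Mki67, a marker of dividing cells, had no UMI in any healthy mouse and was at 127, 0, 8.67 and 7.05 CPM in the MI mice.

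The last comparison asked whether the change post-MI differed between pericytes and EC of the same mice, with the mouse as a factor. It found 22 genes of 2028 (1.08%), 17 with a lower and 5 with a higher change in pericytes. When the EC sums were thinned to the totals of the pericytes, 1 gene had a lower and 5 had a higher change, and of the 11 genes with the highest or lowest values only Vwa1, Cd34 and Ly6c1 kept their call. Postn (periostin), a matrix gene of activated fibroblasts, had the lowest value (-4.47, edgeR adjusted p = 0.0193). It was at 265, 187, 114 and 0 CPM in healthy and 388, 163, 113 and 211 CPM in MI pericytes, which overlapped, whereas in EC it went from 0.626 to 18.8 CPM. Col1a2 (-4.45, 0.0193) and Tagln (-3.90, 0.0261) also overlapped between the groups in pericytes, while in EC they rose from under 1.5 CPM. Ctsc, a lysosomal protease, was at -3.30 (0.0063) and went from 5.98 to 28.2 CPM in EC. In the same EC the 12 macrophage genes went from 0.0196% of UMIs in healthy to 0.0991% in MI mice. The 15 fibroblast genes went from 0.00939% to 0.0347% there. The part of RNA of other cells in these EC values was not tested.

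Plxdc2 (-3.82, edgeR adjusted p = 0.0432) was also among the lowest. The rule genes Abcc9 (-3.20) and Kcnj8 (-2.45) are given as a description, with EC levels of 2.59 and 7.18 CPM for Abcc9 and 1.90 and 5.73 CPM for Kcnj8 in healthy and MI mice. The genes with a higher change in pericytes were Cyp4b1 (1.67, edgeR adjusted p = 0.0415), Vwa1 (1.65, 0.0279), Plpp1 (1.23, 0.0415), Cd34 (1.17, 0.0136) and Ly6c1 (0.84, 0.0138). Of these Cd34 and Vwa1 rose within pericytes, Cd34 from 265, 187, 162 and 349.6 CPM to 843, 708, 936 and 818 CPM (log2 fold change 1.80, SE 0.24, adjusted p = 0.000571) and Vwa1 to between 231 and 286 CPM (log2 fold change 1.87, SE 0.30, adjusted p = 0.00302). All 5 were lower in pericytes than in EC on average, and the endothelial RNA of the pericytes stands beside them, with its part not tested. Of the 11 genes with the highest or lowest values, Ctsc kept its call without any 1 mouse and Cd34 lost it only without Healthy 239. With each of the 8 mice left out in turn, Ly6c1 kept its call 6 times, Postn and Tagln 5 times and Col1a2 4 times. Cyp4b1, Vwa1 and Plxdc2 kept it 3 times and Plpp1 2 times. Without Healthy 239 the comparison called 6 genes, without MI 250 it called 11 and without MI 244 it called 40.

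**Figure D4:**
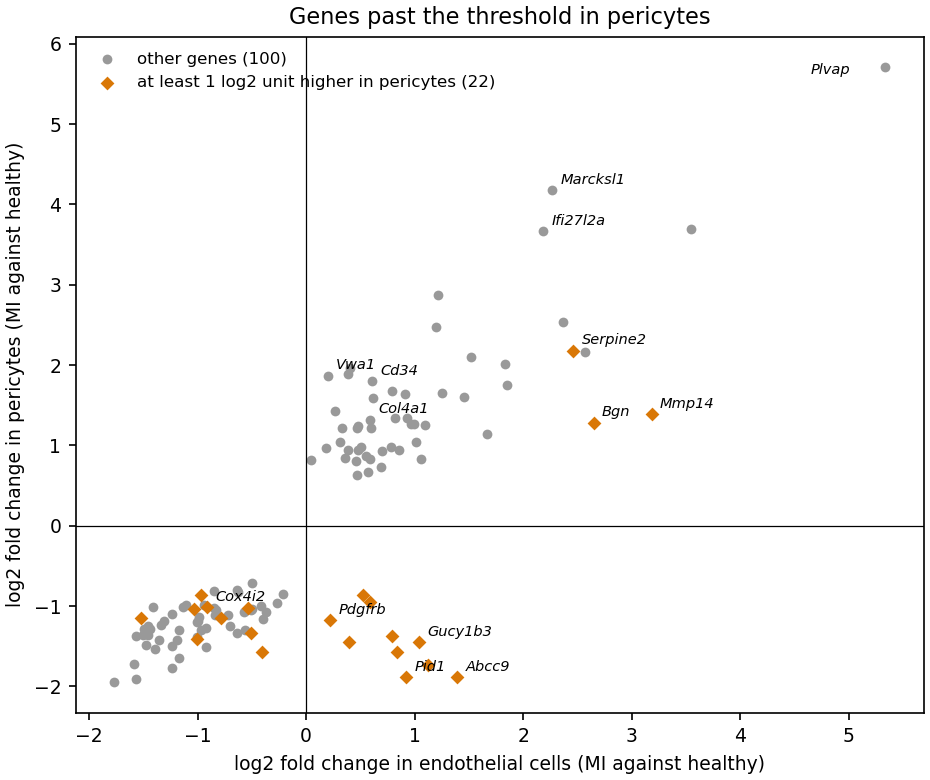
Log2 fold change of MI against healthy mice in EC (horizontal axis) and in pericytes (vertical axis) for the 122 genes past the threshold in pericytes that were also tested in EC, as orange diamonds for 22 genes at least 1 log2 unit higher in pericytes than in EC and grey circles for 100 others. All 100 others and 12 of the 22 had the same sign in both, and 10 of the 22 had opposite signs. Plvap, at 5.70 in pericytes and 5.34 in EC, lies at the upper right. The pericyte genes Pid1, Abcc9, Gucy1b3 and Pdgfrb, with EC levels of 5.27, 4.89, 2.50 and 0.837 CPM, lie at the lower right, and Cox4i2 at the lower left, below 0 in both.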

How the data were processed

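UMIs were measured by 10X Chromium 3' RNA-seq of sorted cells from 4 healthy and 4 MI mice. The authors deposited raw UMI counts, not normalized, for 16791 genes and 31028 cells. The submitters' processing notes name Cell Ranger, the mm10 build, R 3.5.2 and Seurat 2.3, and the study's methods left out cells with under 400 genes or over 20% mitochondrial reads. Mice were named by the numbers in their labels. Libraries held 6764977 to 8793655 UMIs in healthy and 15865234 to 27244947 in MI mice. The labels treat each mouse as a separate sample.

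Cells were selected by the rule, counts were summed over the pericytes of each mouse, and edgeR 4.0.16 was run on these totals (TMM factors, filterByExpr, quasi-likelihood test, Benjamini-Hochberg adjustment at 0.05) in R 4.3.3. CPM are UMIs per 1000000 summed UMIs. The interaction used 16 sums with mouse as a factor. For single values of a mouse an exact permutation test, two-sided, ran over all 70 labelings (scipy 1.17.1, Python 3.11.15). The code was tested on simulated data.

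The members, gene lists and tests were chosen with earlier results of these data known. Genes named in the text are those of 25 lists fixed by hand, up to 12 each way with adjusted p under 0.05, a mean of at least 50 CPM, no overlap between groups and a level at least 1 log2 unit above EC, 6 each way without the last condition, the 10 highest above EC, and 6 each way of the interaction. A gene that these conditions for naming select is not reported here. Only 2 genes met the first condition among those higher. Alternatives were DESeq2 1.42.0, RLE factors, no filter, the shared barcodes kept, other limits of the rule, thinning to 1000 UMIs (each cell's UMIs drawn at random), Xist as a covariate and each mouse left out. Cells with under 1000 UMIs were left out of the thinned sets. Scaling to pericyte genes, with and without the rule genes, and keeping pericytes of low endothelial share were added after seeing the data.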

Additional observations from a re-analysis of the deposited data

Results flagged for a closer look

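In 8 of 82 groups of 4 mice, the gap between the most distant mouse and its neighbour was over 0.829 of the range of the group. Chance gives about 1 in 20 for normally distributed values. Plvap and Marcksl1 had a UMI in 1 healthy mouse only and pass this limit by construction, so the count of 8 is a description. Healthy 240, with 6 pericytes, was highest for Plxdc2 at 233 CPM and for Steap4 at 1592 CPM. Healthy 228 was the only healthy mouse with Plvap, at 24.9 CPM, and Healthy 227 the only one with Marcksl1, at 39.8 CPM. In the MI group, MI 255 was lowest for Plxdc2 at 17.3 CPM and highest for Igfbp3 at 1214 CPM, MI 250 was highest for Rem1 at 74.9 CPM, and MI 244 was lowest for Notch3 at 119 CPM.

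The change post-MI differed between pericytes and EC (edgeR interaction, log2 scale) for Cyp4b1 at 1.67, Vwa1 at 1.65, Plpp1 at 1.23, Cd34 at 1.17 and Ly6c1 at 0.84, and for Postn at -4.47, Col1a2 at -4.45, Tagln at -3.90, Plxdc2 at -3.82, Ctsc at -3.30 and the rule gene Abcc9 at -3.20, a description. Of the genes outside the rule, Ctsc alone kept its call without Healthy 239, and Vwa1, Cd34 and Ly6c1 kept theirs with EC sums thinned to the pericyte totals.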

How the results depend on the processing

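The main limits are the small number of pericytes (6 in Healthy 240), their endothelial UMIs and their deeper libraries post-MI. Directions of the 4 values per mouse held under all alternatives except these. The share of pericytes with no limit on Myh11 ranged from -0.802 to 0.0881 percentage points without 1 mouse (added after seeing the data). The endothelial share (MI minus healthy, main 0.176 percentage points) ranged from -0.0165 to 0.413 without 1 mouse. The contractile share (main -0.0663) ranged from -0.160 to 0.0122 without 1 mouse, was 0.0451 with no limit on Myh11 and 0.0315 for pericytes chosen after thinning. With the shared barcodes kept, the difference was -0.228 for the contractile share and 0.311 for the endothelial share. The difference in median UMIs (main 2487) ranged from 2308 to 2650 without 1 mouse, where the smallest exact permutation p is 0.0571, and was 1468 with no limit on Myh11.

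Genes higher and lower in MI pericytes (main 53 and 73) numbered 28 to 64 and 28 to 78 without 1 mouse, lowest without MI 244. They were 150 higher with no filter (12888 genes tested), 29 higher with at least 3 UMIs of Rgs5, and 0 and 0 (edgeR, 211 genes tested, 4 and 9 at an unadjusted p under 0.05) in the 41 pericytes with no UMI of Pecam1 and Cdh5. They were 6 and 5 (724 tested) at a low endothelial share, 1 and 0 (306 tested) after thinning, and 455 and 3 when scaled to pericyte genes (168 and 1 without the rule genes). DESeq2 gave 47 and 68, and Mmp14, Hspg2 and Epas1 lost their call. Genes with a different change in pericytes and EC (main 22) numbered 6 to 40 without 1 mouse, 6 with EC sums thinned (5 higher and 1 lower, against 5 and 17), 78 with shared barcodes kept, 1 at a low endothelial share and 1 with no UMI of Pecam1 and Cdh5. Fewer cells and fewer genes enter the restricted sets, and the cause was otherwise not tested.

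Of 42 named genes called in the main test, rule genes included, 21 kept their call when scaled to pericyte genes (19 without the rule genes), which moves the median of all genes to 0.74 (0.62), and the rule gene Rgs5 went to 0.0074. With no limit on Myh11 25 kept their call, and the 17 that lost it were Steap4, Pdgfrb (-0.70), Sncg (-0.37), Ebf1, Cygb, Cox4i2, Epas1, Pkm, Col4a2, Col18a1, Hspg2, Serpinh1 and the rule genes Abcc9, Rgs5, Rgs4, Vtn and Ndufa4l2. With at least 3 UMIs of Rgs5 the calls for Steap4, Cygb, Epas1, Pkm, Col4a2, Hspg2, Serpinh1, Btg2, Ptprb and the rule gene Ndufa4l2 were lost, and with no filter those for Cygb, Cox4i2, Ebf1, Epas1, Hspg2, Hspb1, Ptprb and the rule genes Rgs5 and Ndufa4l2. At a low endothelial share 28 were tested, 4 kept their call and 0 turned. Vtn turned to 0.0745 after thinning and Cox4i2 to 0.22 without Pecam1 and Cdh5 UMIs. No paired analysis was possible because the mouse numbers are not shared between the groups.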

Other observations

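Transcripts of the mitochondrial genome, looked at after their values were seen, were lower in MI pericytes. Of 13 such genes 11 were tested, 9 fell (mt-Nd1, mt-Nd2, mt-Nd3, mt-Nd4, mt-Nd4l, mt-Nd5, mt-Co1, mt-Co2 and mt-Co3) and none rose, where 3.60% of all genes tested were lower, with a median log2 fold change of -1.08 against 0.00 over all genes and -0.50 in EC, where 6 of 13 fell and 18.7% of all EC genes tested were lower. Their summed share was 4.35%, 4.07%, 3.63% and 8.60% of pericyte UMIs in Healthy 227, 228, 239 and 240 and 2.50%, 2.63%, 2.82% and 3.32% in MI 244, 250, 255 and 256, without overlap. In EC the shares were 3.44 ± 0.686% and 2.91 ± 0.631% (SD, n = 4). Whether these changes differ between pericytes and EC was tested gene by gene, and none of the 9 was among the 22 genes called.

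Of 11 tested ribosomal protein pseudogenes 7 were lower in MI pericytes and 14 of 15 in MI EC, where 3.60% and 18.7% of all genes tested were lower, while of 82 tested ribosomal protein genes 1 was higher and 1 lower in pericytes. Reads of such pseudogenes may be shared with their parent genes.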
